A study of Mus musculus with 10 samples.

Results

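Aminoacyl-tRNA synthetases are the enzymes that join each amino acid to its own tRNAs, and this account follows the transcripts of 36 of them in cultured brown adipocytes, the heat-producing fat cells. The genes were taken from the deposited count table by symbol alone: 20 symbols of the cytosolic enzymes and 16 symbols ending in 2, which name the enzymes of the mitochondrion. They are 36 of the 24640 gene symbols in that table and 36 of the 15212 that passed the filter on low counts, so no member was lost to the filter.

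The cells came from C57BL/6 mice, with no genetic change given in the labels, and 10 libraries fall into 5 groups of 2. Cells received the solvent DMSO for 1 day, BML-260 for 1 day, DMSO for 3 days, BML-260 for 3 days, or an agent that the labels give only as ISO. BML-260 is marketed as a Dusp22 inhibitor, Dusp22 being a protein phosphatase. The labels list ISO at 1 day, but names of deposited tables set it beside the 3-day groups, so its values are given against both DMSO groups. Nothing in the labels says whether the 2 libraries of a group came from separate cultures or animals. The p-values therefore reflect no more than how far these libraries vary, and that variation may be technical. The samples were bulk cultures, in which fewer cells of a type and less RNA per cell cannot be told apart.

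In the cytosol these enzymes feed the ribosomes that translate nuclear messages, and a separate nuclear-encoded set is imported into mitochondria to translate the few messages of the mitochondrial genome, which code for respiratory chain subunits. Kars and Gars are exceptions, since each gene gives both the cytosolic and the mitochondrial enzyme. Several cytosolic enzymes sit together in the multisynthetase complex, held by the scaffold proteins Aimp1, Aimp2 and Eef1e1. By its fold, a synthetase's catalytic domain belongs to class I or class II. Many cytosolic synthetase genes are known targets of ATF4, the transcription factor that is translated when the integrated stress response slows general translation. Brown fat is rich in mitochondria, so both sets are in use there.

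Levels are given as CPM, counts scaled to a common library size, on library sizes scaled by the TMM method. The libraries held 16955918 to 21185675 counts, and a single member had 779 to 16477 counts per library in the cytosolic set and 109 to 7977 in the mitochondrial set. The cytosolic set took 0.324% to 0.427% of a library's counts and the mitochondrial set 0.0804% to 0.0983%. Adipocyte markers were present in every group, with summed levels of 7044 to 14069 CPM, most of it Fabp4, and they moved both ways with BML-260. Of 6, 2 rose and 2 fell at 1 day, and 2 rose and 3 fell at 3 days, with log2 fold changes of 0.71 and 0.31 for Fabp4 and -0.35 and -1.06 for Adipoq. Of 5 brown adipocyte markers 3 rose and 1 fell at 1 day and 3 rose and 2 fell at 3 days, with Ucp1 higher by 1.32 and 1.32. Kcnk3 fell from a mean of 216 to 162 CPM at 1 day and from 171 to 103 at 3 days, where Ppargc1a also fell (48.4 to 39.9). Their summed level was 412 CPM with DMSO and 413 with BML-260 at 1 day, and 442 and 434 at 3 days. Marker counts are to be read beside all genes tested, of which 9.32% rose and 8.62% fell with BML-260 at 1 day, and 17.3% and 18.3% at 3 days. Of the 6 tested markers of preadipocytes and fibroblasts, 4 fell with BML-260 at 1 day and 6 at 3 days. Their summed level was 301 ± 9.21 CPM (SD, n = 2) with DMSO and 198 ± 9.71 with BML-260 at 1 day, 537 ± 32.9 and 303 ± 7.01 at 3 days, and 476 ± 19.6 with ISO. Of 5 markers of smooth muscle and pericytes, 4 fell at each time, from 179 ± 0.235 to 113 ± 7.09 CPM at 1 day and from 231 ± 7.01 to 106 ± 7.43 at 3 days, with 187 ± 18.5 with ISO. The part of these shifts in the results below was not tested. Endothelial, macrophage and skeletal muscle markers that the table holds summed to at most 1.42, 7.18 and 1.43 CPM, and the endothelial marker Cdh5 had 0 counts in 8 of 10 libraries.

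Per kilobase of annotated exon, the cytosolic enzymes were the more abundant set. The glycyl enzyme Gars stood first at 98.8 CPM per kb (mean of the 5 group means), followed by the seryl enzyme Sars at 67.9, the asparaginyl enzyme Nars at 54.2 and the alanyl enzyme Aars at 50.7. The first 11 places were all cytosolic. The mitochondrial leucyl enzyme Lars2 came 12th at 27.3 CPM per kb, and the mitochondrial methionyl enzyme Mars2 was last at 0.682.

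Promoter sequence was examined because one DNA element links some of these genes to ATF4. RefSeq promoters (GRCm38.p6, 250 bases before to 50 after the start) were matched for 27 members, 13 cytosolic and 14 mitochondrial. The core of the C/EBP-ATF response element, TGATGNAA on either strand, was found in 5 of the 13 cytosolic genes (38.5%) and in 0 of the 14 mitochondrial genes. It was in 1219 of all 27025 genes of the promoter table (4.51%). The 5 stretches are shown so that the element can be read in place, 5′ to 3′ on the strand of the gene, with the match in capitals. A match is a description of letters and not a binding site.
Aars, chr8:111033704-111033763, plus strand: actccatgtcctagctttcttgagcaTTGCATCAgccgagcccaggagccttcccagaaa
Gars, chr6:55037945-55038000, plus strand: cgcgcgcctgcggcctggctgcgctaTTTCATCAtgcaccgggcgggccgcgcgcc
Iars, chr13:49682126-49682155, plus strand: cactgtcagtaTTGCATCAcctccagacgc
Tars, chr15:11399659-11399699, minus strand: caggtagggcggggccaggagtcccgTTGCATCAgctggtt
Yars, chr4:129189895-129189924, plus strand: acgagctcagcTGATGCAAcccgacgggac
In Aars, Gars, Iars and Tars the printed match lies on the strand opposite to the gene, and in Yars on the gene's own strand. It begins 112 bases before the start in Aars, 30 before in Gars and 15 before in Tars, and 8 bases after the start in Iars and 4 after in Yars. Aars holds a further match 10 bases after the start. The gamma-activated site TTCNNNGAA, the element that STAT factors bind after interferon, was searched because the tryptophanyl gene Wars is known as an interferon-induced gene. It was in 2 of 13 cytosolic genes, 1 of 14 mitochondrial genes and 9.55% of all genes. The promoter of Wars itself was not analysed here.

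With BML-260 the cytosolic set rose within 1 day, and no cytosolic gene fell. Its summed level was 3286 ± 108 CPM (SD, n = 2) with DMSO and 3863 ± 65.9 with BML-260, 17.6% higher. Of the 20 genes, 14 rose (adjusted p under 0.05, edgeR's quasi-likelihood test), against 9.32% of all genes tested higher and 8.62% lower. The median log2 fold change was 0.21 over the 20 genes and -0.0010 over all genes tested. Of the 20, 0 were lower at an unadjusted p under 0.05 and 0 by DESeq2. In 18 of the 20 both BML-260 libraries lay above both DMSO libraries, which held for 28.6% of all genes.

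**Figure D1:**
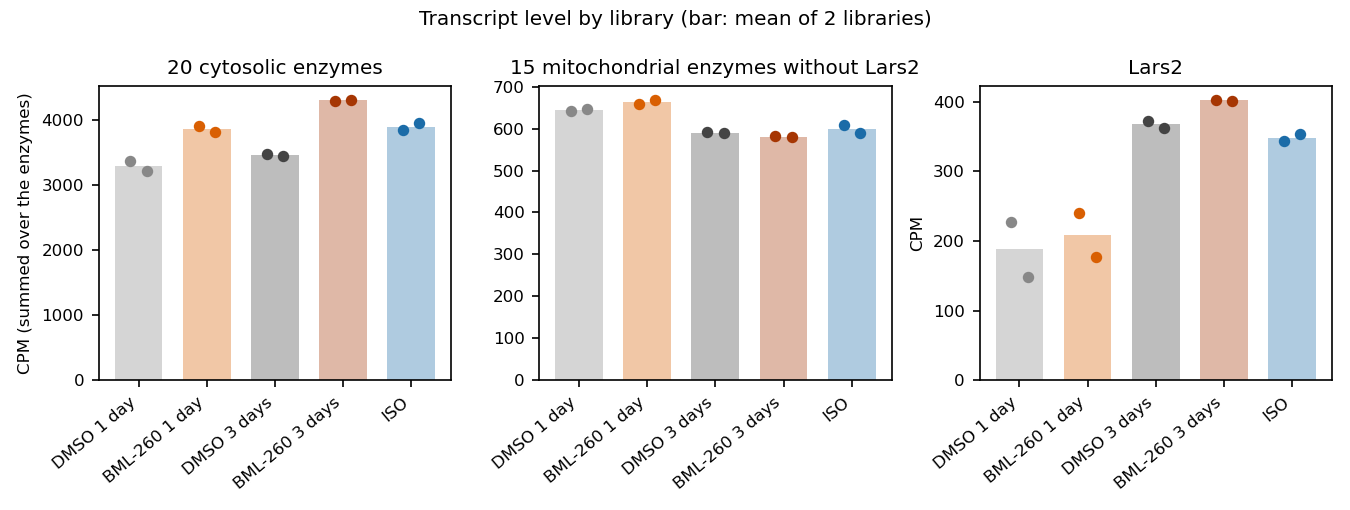
Transcript level (y axes, CPM) in each of the 10 libraries (points, with bars for the mean of 2) of the cytosolic enzymes summed, the mitochondrial enzymes summed without Lars2, and Lars2 alone. The cytosolic sum was 3286 ± 108 CPM (mean ± SD) with DMSO and 3863 ± 65.9 with BML-260 at 1 day, and 3458 ± 24.6 and 4299.5 ± 7.57 at 3 days. Lars2 was lower with DMSO and BML-260 at 1 day than in the 3-day groups and with ISO, which the labels also list at 1 day.

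The tryptophanyl enzyme Wars had the largest change of the 36 members at 1 day. Its level was 109 and 101 CPM in the DMSO libraries and 157 and 146 with BML-260, a rise of 44.7% (log2 fold change 0.53, SE 0.055, adjusted p = 8.0e-08 by edgeR). At 3 days it was 102 and 95.2 CPM with DMSO and 143 and 139 with BML-260 (log2 fold change 0.52, SE 0.055, adjusted p = 2.9e-08 by edgeR). The groups did not overlap at either time. The difference between the BML-260 effects at 3 days and 1 day was -0.01, with a 95% interval of -0.17 to 0.14. Wars is annotated at chr12:108860030-108894174, minus strand (GENCODE M21, GRCm38).

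The bifunctional glutamyl-prolyl enzyme Eprs, a member of the multisynthetase complex, was the member with the most counts. It stood at 639.5 and 589 CPM with DMSO and 774 and 752 with BML-260 at 1 day (log2 fold change 0.31, SE 0.045, adjusted p = 1.1e-05 by edgeR). Nars, the asparaginyl enzyme, moved from 202 and 193 to 247 and 242 CPM (log2 fold change 0.31, SE 0.045, adjusted p = 1.5e-05 by edgeR). Neither pair of groups overlapped. Gars rose from 291 and 260.1 to 344 and 334 CPM (log2 fold change 0.30, SE 0.049, adjusted p = 6.9e-05 by edgeR). The tyrosyl enzyme Yars rose from 99.7 and 91.2 to 119.7 and 115 CPM (log2 fold change 0.30, SE 0.055, adjusted p = 0.00033 by edgeR). In both, the lower BML-260 library stood above the higher DMSO library.

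The cytosolic phenylalanyl enzyme is built from an alpha subunit, Farsa, and a beta subunit, Farsb, and the 2 genes differed in their calls. Farsb rose from 73.8 and 67.3 CPM to 83.3 and 92.6 at 1 day (log2 fold change 0.32, SE 0.058, adjusted p = 0.00027 by edgeR) and from 70.1 and 72.0 to 87.1 and 91.5 at 3 days (log2 fold change 0.33, SE 0.057, adjusted p = 5.7e-05 by edgeR). Farsa had 45.4 and 46.1 CPM with DMSO and 50.1 and 45.2 with BML-260 at 1 day, overlapping groups that did not pass (adjusted p = 0.62 by edgeR). At 3 days Farsa rose from 45.2 and 44.7 to 52.0 and 51.2 CPM (log2 fold change 0.20, SE 0.066, adjusted p = 0.02 by edgeR). That call was lost without either BML-260 library of 3 days or without DMSO 3 days replicate 2, where edgeR's adjusted p was 0.089, 0.067 and 0.059. With upper-quartile scaling Farsa did not pass at 3 days either (adjusted p = 0.0538 by edgeR). The difference between the 2 subunits was not tested.

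The isoleucyl enzyme Iars and the seryl enzyme Sars also rose at 1 day, by 0.28 and 0.23 on the log2 scale (edgeR adjusted p = 0.00012 and 0.00069). The other members that rose were the leucyl enzyme Lars (0.23), the arginyl Rars (0.21), the aspartyl Dars (0.21), the cysteinyl Cars (0.20), the threonyl Tars (0.17) and the alanyl Aars (0.15). These were the smaller and less secure changes. Without DMSO 1 day replicate 2 the count of cytosolic genes that rose was 9 in place of 14: Aars, Cars, Dars, Lars, Rars and Tars no longer passed (adjusted p = 0.051 to 0.15) and Vars did (adjusted p = 0.023). Without BML-260 1 day replicate 1, Aars, Dars, Rars and Tars no longer passed (adjusted p = 0.069 to 0.23).

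After 3 days with BML-260 the cytosolic set was again above its own control. The summed level was 3458 ± 24.6 CPM with DMSO and 4299.5 ± 7.57 with BML-260, 24.3% higher. Of the 20 genes 16 rose and 0 fell, where 17.3% of all genes tested were higher and 18.3% lower. The median log2 fold change was 0.31 against -0.02 over all genes. With upper-quartile scaling Rars and Farsa did not pass (adjusted p = 0.0625 and 0.0538 by edgeR). Both BML-260 libraries lay above both DMSO libraries for 20 of 20 genes, which held for 32.2% of all genes. At both times 13 genes rose: Aars, Cars, Eprs, Gars, Iars, Lars, Nars, Rars, Sars, Tars, Wars, Yars and Farsb. The share of all genes that rose at both times was not counted, and it cannot exceed the 9.32% that rose at 1 day.

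**Figure D2:**
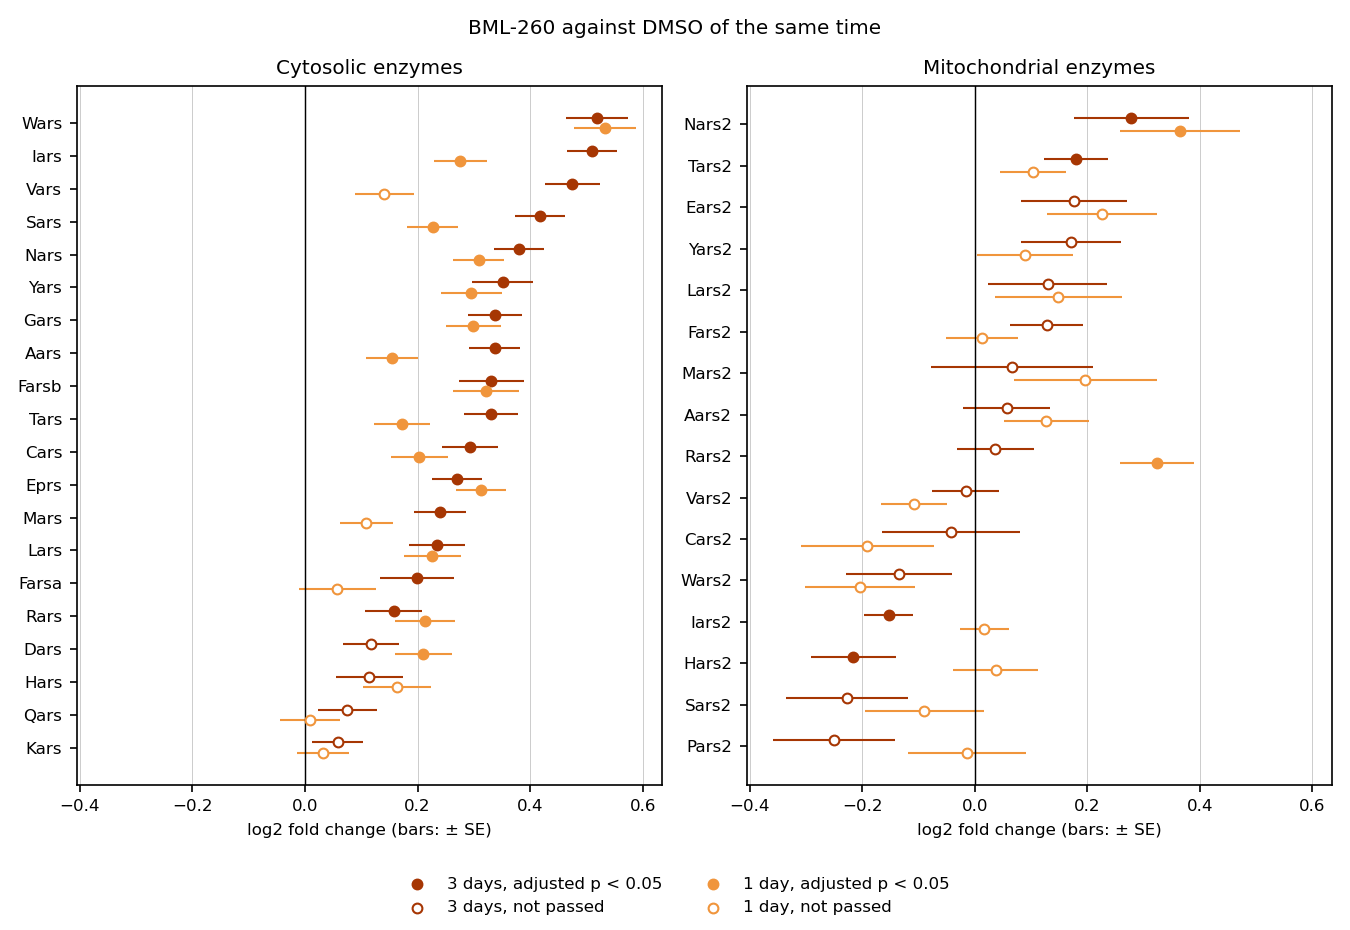
log2 fold change of BML-260 against DMSO (x axis, bars ± SE) at 1 day and at 3 days for each cytosolic (left) and mitochondrial (right) enzyme, with filled points for adjusted p under 0.05 and open points for genes that did not pass. The cytosolic points all lie above 0 at both times, with medians of 0.21 and 0.31, and the mitochondrial points lie on both sides of 0.

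The valyl enzyme Vars, the isoleucyl enzyme Iars and Wars had the largest changes of the 36 at 3 days. Vars was at 169.8 and 175 CPM with DMSO and 241 and 237 with BML-260 (log2 fold change 0.48, SE 0.05, adjusted p = 2.6e-08 by edgeR). Iars was at 137 and 135 CPM with DMSO and 193 and 194 with BML-260 (log2 fold change 0.51, SE 0.045, adjusted p = 1.2e-09 by edgeR). In both genes the groups did not overlap. Sars went from 319 and 319 to 424 and 428 CPM (log2 fold change 0.42, SE 0.044, adjusted p = 3.5e-08 by edgeR). Nars went from 222 and 215 to 279.9 and 288 CPM (log2 fold change 0.38, SE 0.044, adjusted p = 1.6e-07 by edgeR).

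The 5 genes with the printed promoter element were among the 13 of 20 cytosolic genes that rose at both times. So were Eprs, Sars and Farsb, which lack the element, and Cars, Lars, Nars, Rars and Wars, whose promoters were not matched. At 3 days Aars stood at 408 and 394 CPM with DMSO and 512 and 501 with BML-260 (log2 fold change 0.34, SE 0.046, adjusted p = 2.0e-06 by edgeR). Its annotated exons overlap those of Exosc6 on the same strand over 15.1% of their length, so part of its count is uncertain. Gars, Iars, Tars and Yars had log2 fold changes of 0.34, 0.51, 0.33 and 0.35. Of the other 8 matched cytosolic genes, which have no match in this window, 7 had log2 fold changes at 3 days of 0.06 to 0.33 and Sars 0.42. The ranges of the genes with and without the element overlapped, and no test was made.

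Not every cytosolic gene rose. The lysyl enzyme Kars was at 132 and 132 CPM with DMSO and 134 and 135 with BML-260 at 1 day, and at 140.0 and 144 with DMSO and 149 and 146 with BML-260 at 3 days. Its log2 fold changes were 0.03 (95% interval -0.06 to 0.13) and 0.06 (-0.03 to 0.15). The glutaminyl enzyme Qars gave 0.01 (-0.10 to 0.12) and 0.08 (-0.03 to 0.18), and the histidyl enzyme Hars 0.16 (0.04 to 0.29) and 0.11 (-0.01 to 0.24). None of these 3 passed at either time, and the intervals for Hars reach the size of change seen in genes that did pass. Hars passed at 1 day without DMSO 1 day replicate 1 (edgeR adjusted p = 0.034). Dars rose at 1 day and did not pass at 3 days (0.12, adjusted p = 0.067 by edgeR), but did so there with DESeq2 size factors in edgeR (adjusted p = 0.034) and in the fit of those groups alone (0.034). The methionyl enzyme Mars did the reverse, with 0.11 at 1 day (adjusted p = 0.11 by edgeR) and 0.24 at 3 days (0.0002), and the difference between its effects at the 2 times did not pass (adjusted p = 0.23 by edgeR).

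The cytosolic genes were also counted by catalytic class and by place in the complex. The bifunctional Eprs was counted in class I alone. In class I, 7 of 10 cytosolic genes rose at 1 day and 9 of 10 at 3 days, with medians of 0.22 and 0.28. In class II, 7 of 10 rose at each time, with medians of 0.19 and 0.33. Of the 8 enzymes of the multisynthetase complex (Dars, Eprs, Iars, Kars, Lars, Mars, Qars and Rars) 5 rose at each time, and of the 12 outside it 9 rose at 1 day and 11 at 3 days. The median at 3 days was 0.20 within the complex and 0.34 outside it. Neither the difference between the classes nor that between the complex and the rest was tested. Of the 4 genes that did not pass at 3 days, Dars, Kars and Qars belong to the complex and Hars does not. Rars at 3 days lost its call without BML-260 3 days replicate 2 or DMSO 3 days replicate 1 (edgeR adjusted p = 0.19 and 0.069).

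The scaffold proteins of the complex gave 1 call in the BML-260 comparisons with DMSO, that of Aimp2 at 3 days. Aimp1 was at 51.5 and 49.8 CPM with DMSO and 53.9 and 56.4 with BML-260 at 1 day, and at 56.8 and 58.7 with DMSO and 62.5 and 62.5 with BML-260 at 3 days (edgeR adjusted p = 0.13 and 0.1). Of Aimp1, Aimp2 and Eef1e1, 0 of 3 passed at 1 day by edgeR, with 1 at an unadjusted p under 0.05. At 3 days all 3 were higher at an unadjusted p under 0.05 (median 0.21), and Aimp2 alone passed (log2 fold change 0.37, SE 0.11, adjusted p = 0.011 by edgeR). At that unadjusted level 2349 of all 15212 genes tested were higher at 1 day and 3260 at 3 days, where 17.3% passed as higher.

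The effect of BML-260 was larger at 3 days than at 1 day in 2 cytosolic genes, Vars and Iars. The test was of the difference between the effects, for which 3.93% of all genes tested were higher at 3 days and 4.51% lower. For Vars, BML-260 gave 154 and 152 CPM against 132 and 146 at 1 day, a log2 fold change of 0.14 that did not pass (adjusted p = 0.06 by edgeR, 0.023 without DMSO 1 day replicate 2 and 0.043 and 0.049 without either ISO library), and the difference between the effects was 0.33 (SE 0.072, adjusted p = 0.0041 by edgeR). For Iars the levels at 1 day were 113 and 111 CPM with DMSO and 136 and 135 with BML-260, and the difference was 0.23 (SE 0.065, adjusted p = 0.024 by edgeR). Vars passed whichever library was left out, while Iars lost its call when any 1 of 7 of the 8 libraries compared was left out (adjusted p = 0.057 to 0.068), the exception being DMSO 3 days replicate 1. In Sars the difference was 0.19 (adjusted p = 0.059 by edgeR), and it passed by DESeq2 (adjusted p = 0.035) and without DMSO 1 day replicate 2 (0.032). In the other 17 cytosolic genes the difference did not pass, and over the 20 it had a median of 0.06. Vars is annotated at chr17:35000987-35016322, plus strand and Iars at chr13:49682100-49734267, plus strand (GENCODE M21, GRCm38).

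**Figure D3:**
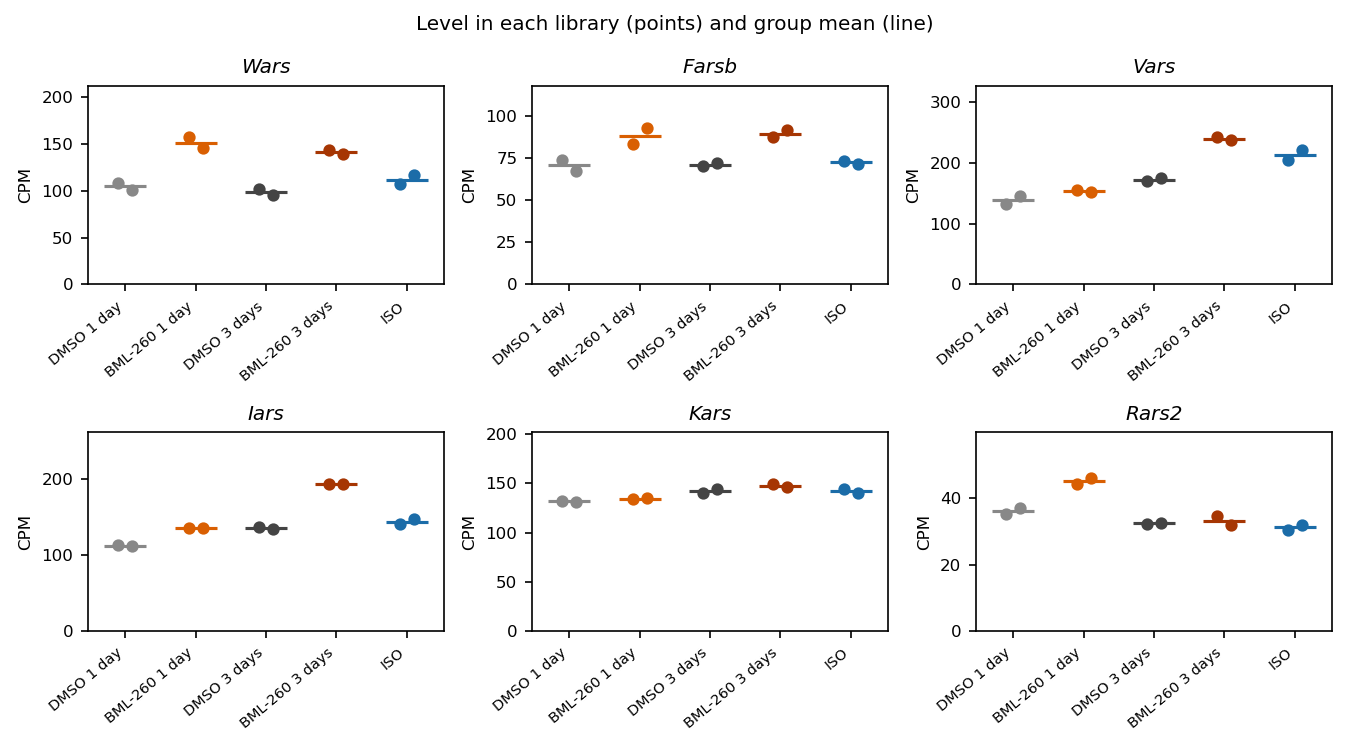
Level (y axis, CPM) in each library (points) and group mean (line) in the 5 groups for Wars, Farsb, Vars, Iars, Kars and Rars2. Wars was high in both BML-260 groups (157 and 146 CPM at 1 day, 143 and 139 at 3 days) and not with ISO (107 and 117), Vars was high with BML-260 at 3 days and with ISO, and Rars2 was high with BML-260 at 1 day (44.3 and 46.2).

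The mitochondrial set did not rise with the cytosolic one. At 1 day 2 of 16 rose and 0 fell, beside 9.32% and 8.62% of all genes, and at 3 days 2 rose and 2 fell, beside 17.3% and 18.3%. These shares are near the background. The medians were 0.06 and 0.05. Summed without Lars2, the level was 644 ± 3.23 CPM with DMSO and 664 ± 5.87 with BML-260 at 1 day, and 591 ± 2.89 and 581 ± 1.47 at 3 days.

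The mitochondrial arginyl enzyme Rars2 rose at 1 day. It had 35.3 and 37.0 CPM with DMSO and 44.3 and 46.2 with BML-260 (log2 fold change 0.32, SE 0.066, adjusted p = 0.00095 by edgeR). At 3 days the levels were 32.3 and 32.5 CPM with DMSO and 34.8 and 31.8 with BML-260 (0.04), groups that overlapped. The difference between the effects was -0.29 and did not pass (adjusted p = 0.061 by edgeR), nor did that of any other mitochondrial gene: 0 of 16 passed by edgeR and 0 by DESeq2, and 3 had an unadjusted p under 0.05. Rars2 is annotated at chr4:34614957-34660167, plus strand (GENCODE M21, GRCm38).

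The asparaginyl enzyme Nars2 was called at both times, with 14.3 and 13.6 CPM with DMSO against 17.4 and 18.5 at 1 day (log2 fold change 0.36, SE 0.11, adjusted p = 0.017 by edgeR) and 15.2 and 15.4 against 17.7 and 19.3 at 3 days (log2 fold change 0.28, SE 0.10, adjusted p = 0.034 by edgeR). It did not pass without DMSO 1 day replicate 2 or BML-260 1 day replicate 2 (adjusted p = 0.15 and 0.11), nor by DESeq2 at either time (adjusted p = 0.056 and 0.09). At 3 days the threonyl enzyme Tars2 rose (0.18, adjusted p = 0.015 by edgeR) and the isoleucyl Iars2 and histidyl Hars2 fell (-0.15 and -0.22, adjusted p = 0.0076 and 0.026). None of the 4 mitochondrial calls at 3 days was left without BML-260 3 days replicate 2 or without DMSO 3 days replicate 2 (adjusted p of the 4 = 0.065 to 0.27 and 0.058 to 0.13), and Tars2 alone of the 4 passed without DMSO 3 days replicate 1. Hars2 also lost its call without BML-260 3 days replicate 1 (0.077) and by DESeq2 (0.13). Exons of Iars2 overlap other annotated genes over 24.2% of their length, and for the counting, use of strand was not given in the sources used here.

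For 13 amino acids both a cytosolic and a mitochondrial gene were measured, and the pairs show the same contrast gene by gene. The cytosolic gene had the larger log2 fold change in 10 of 13 pairs with BML-260 at 1 day and in 13 of 13 at 3 days, with median differences within a pair of 0.13 and 0.28. The exceptions at 1 day were Mars, Nars and Rars, where the cytosolic value minus the mitochondrial value was -0.09, -0.06 and -0.11. With time in DMSO alone the cytosolic gene also had the larger value in 10 of 13 pairs (median difference 0.26). With ISO it did so in 12 of 13 pairs against DMSO at 1 day (0.37) and in 13 of 13 against DMSO at 3 days (0.13). The contrast was thus not particular to BML-260. The 2 sets share the libraries, and no test was made over pairs.

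Mitochondrial genes fell between 1 and 3 days with DMSO alone. Of the 16, 7 fell and 1 rose, beside 16.8% of all genes lower and 18.1% higher, with a median of -0.14. Mars2 fell from 9.31 and 8.43 to 5.54 and 6.65 CPM (log2 fold change -0.54, SE 0.14, adjusted p = 0.003 by edgeR). The valyl enzyme Vars2 fell from 66.7 and 71.1 to 56.7 and 58.5 CPM (log2 fold change -0.26, SE 0.058, adjusted p = 0.00099 by edgeR). Neither pair of groups overlapped. The tyrosyl Yars2 (-0.32), cysteinyl Cars2 (-0.30), alanyl Aars2 (-0.23), phenylalanyl Fars2 (-0.21) and Iars2 (-0.14) also fell. Without DMSO 1 day replicate 1 or DMSO 3 days replicate 1, 4 mitochondrial calls were left in place of 8, and 5 without DMSO 3 days replicate 2. Mars2 lost its call without DMSO 3 days replicate 1 (adjusted p = 0.061 by edgeR).

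Of the 20 cytosolic genes 6 rose with time in DMSO and 0 fell, beside 18.1% of all genes higher and 16.8% lower. Aars (-0.11), however, passed as lower with upper-quartile scaling (adjusted p = 0.034 by edgeR) and in the fit of these 2 groups alone (0.028). The summed level of the cytosolic set moved by 5.25%. Vars (0.31) and Iars (0.28) had the largest changes, and Eprs, Lars, Nars and Sars gave 0.13 to 0.16. The last 4 did not pass without DMSO 1 day replicate 2 (adjusted p = 0.14 to 0.31 by edgeR), nor without DMSO 3 days replicate 1 (0.078 to 0.2), and without DMSO 3 days replicate 2 Nars alone of the 4 passed. Wars was at 109 and 101 CPM at 1 day and 102 and 95.2 at 3 days (-0.09) and did not pass.

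The mitochondrial leucyl enzyme Lars2 went against its set. Its level was 227 and 149 CPM with DMSO and 239 and 177 with BML-260 at 1 day, 372 and 362 with DMSO and 402 and 401 with BML-260 at 3 days, and 343 and 353 with ISO. All 6 libraries of the 3-day and ISO groups stood above all 4 libraries of DMSO and BML-260 at 1 day, although the labels list ISO at 1 day too. The rise over time with DMSO was 0.97 on the log2 scale (SE 0.11, adjusted p = 1.1e-07 by edgeR), and BML-260 gave 0.15 at 1 day and 0.13 at 3 days, neither of which passed, although the 3-day value passed in the fit of those groups alone (adjusted p = 0.0042 by edgeR). With DMSO and with BML-260 at 1 day, the 2 libraries of a group differed by far more in Lars2 than in the other members. Without DMSO 1 day replicate 1 the BML-260 effect at 1 day was 0.48 and passed (adjusted p = 0.0014 by edgeR), as it did without BML-260 1 day replicate 2 (0.021).

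Levels of 2 further entries of the table, AY036118 and the ribosomal RNA precursor Rn45s, are given beside Lars2, and both were chosen after their values were seen. AY036118 stood at 6.81 and 8.27 CPM with DMSO and 6.93 and 7.28 with BML-260 at 1 day, at 13.8 and 12.7 with DMSO and 13.2 and 11.6 with BML-260 at 3 days, and at 13.6 and 10.8 with ISO, and so was high in the same groups as Lars2. Rn45s stood at 394 and 268 CPM with DMSO and 569 and 330.4 with BML-260 at 1 day, at 376 and 317 with DMSO and 411 and 361 with BML-260 at 3 days, and at 317 and 376 with ISO. Within each 1-day group the library higher in Lars2 was also the higher in Rn45s. Their part in the Lars2 result was not tested. Lars2 is annotated at chr9:123366927-123462666, plus strand (GENCODE M21, GRCm38).

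Cytosolic genes also rose with ISO against DMSO at 1 day. This comparison uses the same DMSO libraries as that of BML-260 at 1 day, so the values are given side by side and no overlap is drawn from them. Of 20 genes 14 rose and 0 fell, beside 21.4% of all genes higher and 20.3% lower. The summed level of 3894 ± 79.7 CPM was 18.5% above DMSO. These counts depended on scaling: with upper-quartile scaling Dars passed as lower (-0.14, adjusted p = 0.029 by edgeR). Kars, Mars and Rars did not pass there (adjusted p = 0.29, 0.051 and 0.11 by edgeR). The median log2 fold change was 0.19. Vars had the largest change, from 132 and 146 to 205 and 219.9 CPM (log2 fold change 0.61, SE 0.051, adjusted p = 2.9e-10 by edgeR), followed by Iars (0.36), Sars (0.33), Tars (0.33) and Aars (0.31). Wars, which led with BML-260, was at 107 and 117 CPM with ISO (0.10, adjusted p = 0.16 by edgeR). Farsb was at 73.5 and 71.3 CPM (0.04, adjusted p = 0.65 by edgeR), and Lars did not pass either (0.12). Qars rose from 95.7 and 93.4 to 106 and 111 CPM (log2 fold change 0.20, SE 0.053, adjusted p = 0.0033 by edgeR), and Kars rose by 0.11. Kars lost its call whichever of the 10 libraries was left out (adjusted p = 0.052 to 0.19 by edgeR). Gars did not pass without DMSO 1 day replicate 2 or ISO replicate 2 (0.17 and 0.055), Mars without DMSO 1 day replicate 1 or ISO replicate 2, and Rars without either DMSO library or ISO replicate 1.

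In the mitochondrial set 7 of 16 genes fell and 2 rose against DMSO at 1 day, beside 20.3% of all genes lower and 21.4% higher. Cars2 fell most, from 18.1 and 17.4 to 13.3 and 10.9 CPM (log2 fold change -0.56, SE 0.12, adjusted p = 0.0006 by edgeR). Mars2 (-0.34), Pars2 (-0.34), Yars2 (-0.27), Vars2 (-0.22), Rars2 (-0.21) and Iars2 (-0.14) were the others that fell, and Lars2 and Tars2 rose (0.89 and 0.20). By DESeq2 5 of these 9 passed, and 5 calls were left without DMSO 1 day replicate 1, without DMSO 1 day replicate 2 or without ISO replicate 2. Against DMSO at 3 days 0 mitochondrial genes fell by edgeR, and 0 by DESeq2, with 0 lower at an unadjusted p under 0.05, beside 9.24% of all genes lower and 10.6% higher. There Aars2 alone rose (log2 fold change 0.29, SE 0.076, adjusted p = 0.0069 by edgeR), and it did not pass without DMSO 3 days replicate 1 or ISO replicate 1 (0.083 and 0.081).

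**Figure D4:**
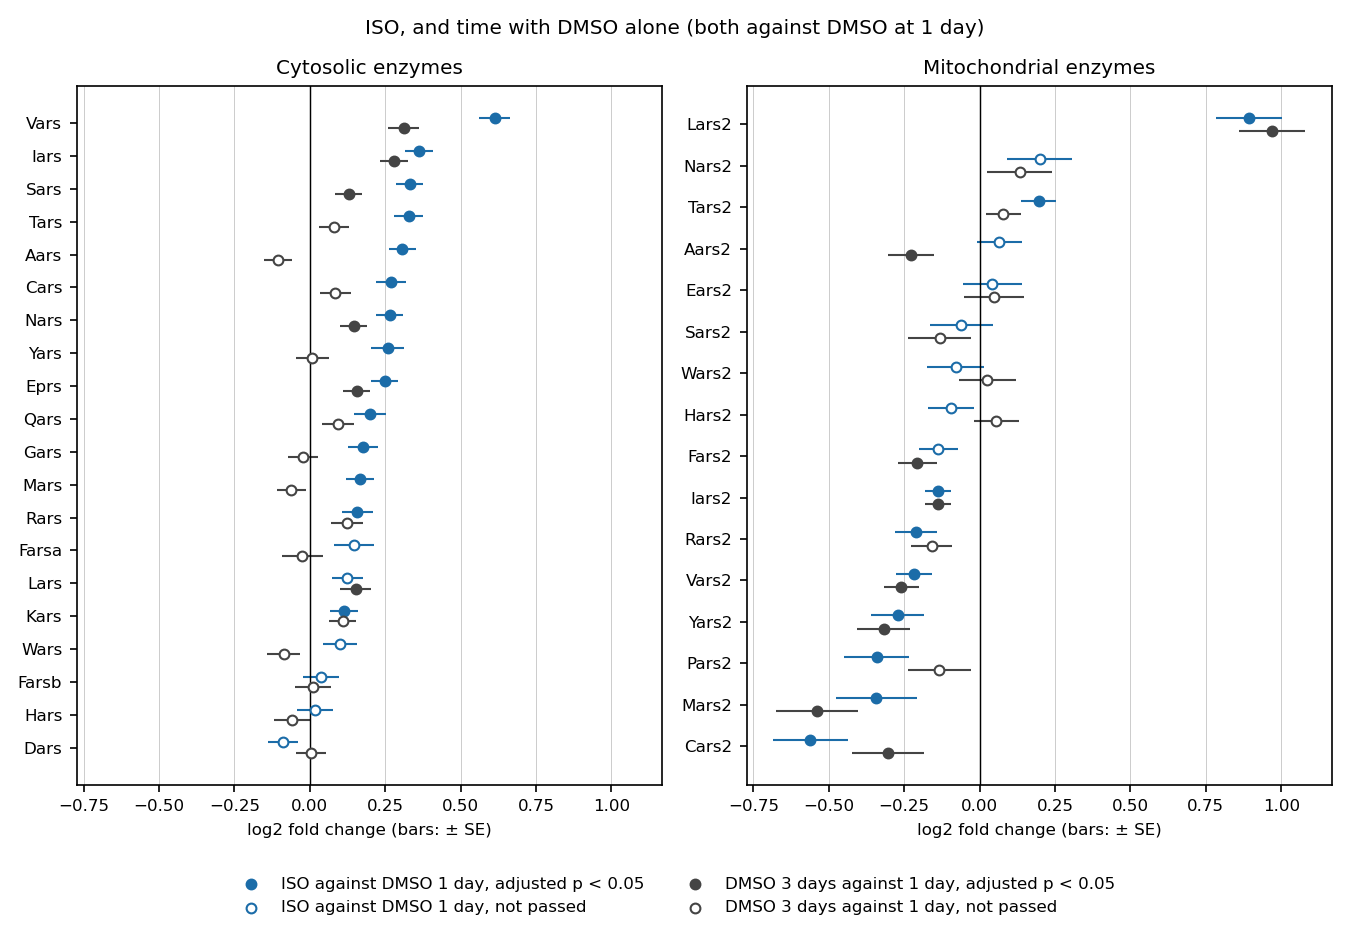
log2 fold change (x axis, bars ± SE) of ISO against DMSO at 1 day and of DMSO at 3 days against 1 day, for each cytosolic (left) and mitochondrial (right) enzyme, with filled points for adjusted p under 0.05. Both use the same DMSO libraries of 1 day, and among mitochondrial genes Lars2 stands at 0.89 and 0.97 while most others lie at or below 0.

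Against DMSO at 3 days, ISO gave fewer calls. There 9 of 20 rose and 0 fell, beside 10.6% of all genes higher and 9.24% lower, with a median of 0.14. Aars led, from 408 and 394 CPM with DMSO at 3 days to 516 and 552 with ISO (log2 fold change 0.41, SE 0.046, adjusted p = 4.4e-07 by edgeR), and Vars rose by 0.30. Without DMSO 3 days replicate 2 Cars, Gars and Wars no longer passed here (adjusted p = 0.051 to 0.17 by edgeR), and without ISO replicate 2 neither did these or Yars (0.062 to 0.27).

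BML-260 and ISO, both listed at 1 day, were then set against each other, a comparison added after the data were seen. Higher calls with BML-260 made up 21.6% of all genes and lower calls 22.8%. The cytosolic sums were 3863 ± 65.9 and 3894 ± 79.7 CPM (SD, n = 2), while single genes differed. Of the 20, 5 were higher with BML-260 and 4 lower. Wars was at 157 and 146 CPM with BML-260 and 107 and 117 with ISO (log2 fold change 0.43, SE 0.054, adjusted p = 2.8e-07 by edgeR). Dars was at 116 and 110.0 CPM with BML-260 and 92.9 and 90.5 with ISO (log2 fold change 0.30, SE 0.05, adjusted p = 2.3e-05 by edgeR), and Farsb was higher by 0.28. Vars went the other way, with 154 and 152 CPM with BML-260 and 205 and 219.9 with ISO (log2 fold change -0.47, SE 0.051, adjusted p = 2.0e-08 by edgeR). Qars, Aars and Tars were lower with BML-260 (-0.19, -0.15 and -0.15) and Hars and Gars higher (0.15 and 0.12). These 5 were the fragile calls. Without ISO replicate 2 all 5 lost theirs and 4 calls were left, those of Wars, Dars, Farsb and Vars. Hars lost its call when any 1 of 8 of the 10 libraries was left out, and Gars when any 1 of 7 was.

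In the mitochondrial set 6 of 16 genes were higher with BML-260 than with ISO and 1 lower, beside 21.6% of all genes higher and 22.8% lower. Rars2 was at 44.3 and 46.2 CPM with BML-260 and 30.4 and 32.0 with ISO (log2 fold change 0.53, SE 0.067, adjusted p = 3.3e-07 by edgeR). Mars2 was at 10.4 and 9.92 CPM with BML-260 and 7.12 and 6.88 with ISO (log2 fold change 0.54, SE 0.13, adjusted p = 0.0015 by edgeR). Yars2, Cars2, Pars2 and Iars2 were higher by 0.36, 0.37, 0.33 and 0.15, and Lars2 was lower, with a log2 fold change of -0.74. Cars2 and Pars2 did not pass without BML-260 1 day replicate 2 or ISO replicate 2 (adjusted p = 0.065 to 0.27 by edgeR). Here the mitochondrial gene had the larger value in 10 of the 13 amino acid pairs.

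**Figure D5:**
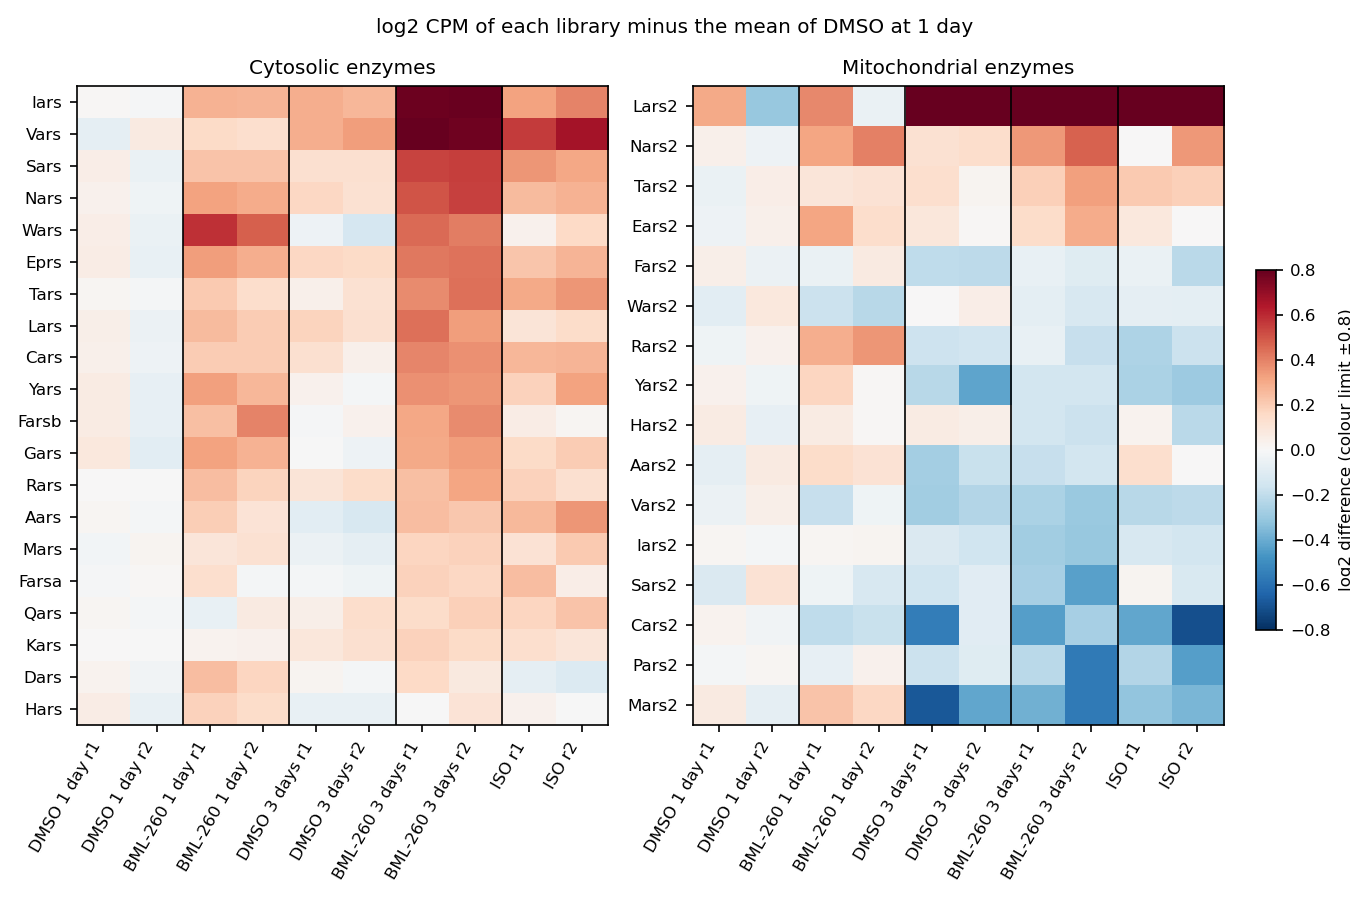
log2 CPM of each library (columns, r1 and r2 for the 2 libraries of a group) minus the mean of DMSO at 1 day (colour, limit ±0.8) for each cytosolic (left) and mitochondrial (right) enzyme, in order of the mean at 3 days of BML-260. Most cytosolic rows are red in the BML-260 and ISO columns, Dars is pale blue with ISO (92.9 and 90.5 CPM against 99.4 and 95.6 with DMSO at 1 day), and Lars2 is beyond the limit of the scale in the 3-day and ISO columns.

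In a list of 23 ATF4 and integrated stress response genes, which includes targets of ATF4 beside the synthetases, most rose with BML-260 at both times. Any link between this list and the synthetases was not tested. At 1 day 15 rose and 1 fell, beside 9.32% and 8.62% of all genes, and at 3 days 19 rose and 1 fell, beside 17.3% and 18.3%. The medians were 0.28 and 0.38. The gene that fell at 1 day was Ddit4, from 87.5 and 90.2 CPM with DMSO to 72.5 and 74.3 with BML-260. Atf4 itself was at 556 and 532 CPM with DMSO and 673 and 667 with BML-260 at 1 day, and at 549 and 551 with DMSO and 778 and 765 with BML-260 at 3 days (log2 fold changes 0.30 and 0.49). Ddit3, which codes for the stress factor CHOP, gave 0.47 and 0.65, and the ATF4 target Trib3 gave 0.39 and 0.45. Asns, the asparagine synthetase and a well-known ATF4 target, was at 199 and 187 CPM with DMSO and 249.43 and 246.20 with BML-260 at 1 day, and at 152 and 146 with DMSO and 216 and 215 with BML-260 at 3 days (0.36 and 0.53). Atf4, Ddit3, Trib3 and Asns passed at both times (edgeR adjusted p at most 8.9e-06).

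With ISO the count of this list depended on the control. Against DMSO at 1 day 12 rose and 7 fell, beside 21.4% of all genes higher and 20.3% lower, and against DMSO at 3 days 11 rose and 2 fell, beside 10.6% and 9.24%. The medians were 0.25 and 0.21. Against DMSO at 1 day Ddit3 (0.80), Trib3 (0.42) and Atf4 (0.23) rose, while Asns fell from 199 and 187 to 150.0 and 159.6 CPM (log2 fold change -0.32, SE 0.048, adjusted p = 5.7e-06 by edgeR). Against DMSO at 3 days, where Asns was at 152 and 146 CPM, its log2 fold change with ISO was 0.06 and did not pass. The share of its promoters with TGATGNAA was 8 of 22 matched genes (36.4%). Exons of Mars and Ddit3 overlap on opposite strands over 68 bases.

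Other lists of the translation machinery are given by their counts, to be read beside the shares of all genes, which with BML-260 were 9.32% higher and 8.62% lower at 1 day and 17.3% and 18.3% at 3 days. Of 6 cytosolic elongation factors 2 rose at 1 day and 4 at 3 days and 0 fell by edgeR, with 0 lower at an unadjusted p under 0.05, with medians of 0.09 and 0.16. Of 12 amino acid transporters 1 rose and 2 fell at 1 day, and 4 rose and 3 fell at 3 days. The 8 mitochondrial translation factors gave 2 that rose and 0 that fell at 1 day and 0 and 2 at 3 days, with medians of 0.14 and -0.08. With ISO 6 of the 8 fell against DMSO at 1 day (median -0.27, beside 20.3% of all genes lower) and 1 against DMSO at 3 days (median 0.0033, beside 9.24%). Mitochondria make glutaminyl-tRNA through an amidotransferase in place of a glutaminyl synthetase, and its subunit gene Gatc was at 47.0 and 42.5 CPM with DMSO and 53.8 and 49.1 with BML-260 at 1 day, and at 37.3 and 38.0 with DMSO and 49.96 and 48.71 with BML-260 at 3 days (log2 fold change 0.39, SE 0.065, adjusted p = 3.2e-05 by edgeR). Of the 4 genes measured of the amidotransferase and the formyltransferase, 1 rose at 1 day and 2 at 3 days, and 0 fell.

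The authors' deposited tables list genes past their own threshold. Their table for 1 day lists 10 of the 20 cytosolic genes, all higher with BML-260, and of the mitochondrial genes Rars2 alone. Their table for 3 days lists 14 cytosolic genes, all higher, with Lars2 higher and Iars2 lower. Of the members in the authors' deposited tables Lars2 at 3 days is the one that edgeR did not call.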

How the data were processed

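RNA sequencing libraries of cultured brown adipocytes were grouped by their titles and treatment labels. The authors deposited a table of raw counts per gene symbol, together with lists of genes past a threshold that give, per the file headers, p-values before and after adjustment and a log2 fold change. Reads went through bcl2fastq 2.17.1.14 and TopHat2 2.1.1, per the submitters' processing notes, which also name bedtools, DESeq2 and 2 builds, mm9 and mm10, without saying where each was used. How genes were annotated and counted, and whether by strand, was not given in the sources used here. Totals of 16955918 to 21185675 counts set the counting error, to which the spread between libraries adds (edgeR's common dispersion 0.00115, a coefficient of variation of 3.39%).

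The members and gene lists were chosen with earlier results of these data known. AY036118, Rn45s, Cdh5, Ddit4, Kcnk3 and Ppargc1a were added after their values were seen. All other named genes are members, the 4 smallest p-values of another list, or Atf4, Ddit3, Asns, Trib3 and Aimp1. Counts were fitted with edgeR 4.0.16 (R 4.3.3): TMM scaling, filterByExpr by group (minimum count 10, minimum total 15), 1 mean per group over 10 libraries with 5 residual degrees of freedom, a quasi-likelihood test, and Benjamini-Hochberg adjustment over the 15212 genes kept. A gene rose, fell or passed at adjusted p under 0.05. SE is the absolute log2 fold change over the square root of F, and intervals are 95%. With 2 libraries against 2, an exact permutation test of a single value cannot go below p = 0.333, so no such test was used. Alternatives were DESeq2 1.42.0, other scalings, no filter, fits of the compared groups alone, a replicate block and leaving out each library. Positions and exon lengths came from GENCODE M21 and promoters from RefSeq, both GRCm38, by symbol, and the count table carries no coordinates. The script was tested on simulated data. There 8.29% of calls were false for BML-260 against DMSO at 1 day, the highest share, and 2.94% at 3 days, the lowest.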

Additional observations from a re-analysis of the deposited data

Results flagged for a closer look

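The effect of BML-260 against DMSO differed between 1 and 3 days in 2 of the 36 members, by a test of the difference itself. Over all genes tested 3.93% were higher at 3 days and 4.51% lower, so the share of members was near that of all genes. Vars had a log2 fold change of 0.14 at 1 day and 0.48 at 3 days, a difference of 0.33 (SE 0.072, adjusted p = 0.0041 by edgeR). Both BML-260 libraries lay above both DMSO libraries at each time. Iars had 0.28 at 1 day and 0.51 at 3 days, a difference of 0.23 (SE 0.065, adjusted p = 0.024 by edgeR), again with no overlap between the libraries at either time, but its call was lost when any 1 of 7 of the 8 libraries compared was left out. These 2 genes also had the largest cytosolic changes with time in DMSO, 0.31 and 0.28.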

How the results depend on the processing

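No member changed direction past the threshold under any alternative run, and no scaling moved the median over all genes by more than 0.0516 on the log2 scale. DESeq2 gave 1 mitochondrial call for BML-260 at 1 day, 2 at 3 days and 5 for ISO against DMSO at 1 day, in place of 2, 4 and 9, and over all genes 757 calls for the difference between the times and 1991 for ISO against DMSO at 3 days, in place of 1284 and 3026. Upper-quartile scaling gave 1 mitochondrial call for the difference between the times, that of Rars2, in place of 0. It also called Aars lower with time in DMSO and Dars lower with ISO against DMSO at 1 day. For BML-260 at 3 days, Rars, Farsa and Nars2 did not pass with this scaling (adjusted p = 0.0625, 0.0538 and 0.0632 by edgeR). Pars2 passed there as lower (0.0426). The fit of the compared groups alone gave 4 cytosolic calls for the difference between the times (Vars, Iars, Sars and Aars) in place of 2. Upper-quartile scaling also shifted the split of all calls at 3 days of BML-260 to 2077 higher and 3313 lower, from 2625 and 2782, that for ISO against DMSO at 1 day to 2588 and 3831, from 3253 and 3086, that for ISO against DMSO at 3 days to 1234 and 1817, from 1620 and 1406, and that for BML-260 against ISO to 3821 and 2987, from 3288 and 3464.

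Leaving out 1 library at a time gave these ranges, with the remaining library of a pair assumed to vary like the other groups. For BML-260 at 1 day there were 9 to 15 cytosolic, 1 to 3 mitochondrial and 1235 to 2843 calls over all genes. At 3 days there were 0 to 4 mitochondrial calls. The difference between the times gave 1 to 2 cytosolic calls and 659 to 1371 over all genes. ISO against DMSO at 1 day gave 5 to 10 mitochondrial calls, and against DMSO at 3 days 1469 to 3073 over all genes. Time in DMSO gave 2 to 6 cytosolic and 4 to 8 mitochondrial calls, and BML-260 against ISO 4 to 10 cytosolic calls. Which library gave the lowest count is named beside each result of the members, and the cause was not tested beyond the smaller number of libraries.

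Same-numbered libraries showed little shared deviation (correlations of -0.0344 to 0.0577 over 10 pairs of groups, 0 above 0.1). Counting noise lowers such correlations over all genes, so they cannot decide whether the numbers pair the samples. With the replicate number as a block, the cytosolic calls were 15 at 1 day and 17 at 3 days of BML-260. No member's call was lost and 6 were gained, of which Vars at 1 day (adjusted p = 0.042 by edgeR) and Dars at 3 days (0.049) concern BML-260 against DMSO.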

Other observations

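The histidyl pair shares its start region. Hars and Hars2, the cytosolic and mitochondrial histidyl enzymes, lie head to head on opposite strands of chromosome 18 and their annotated exons overlap over 195 bases. At 3 days of BML-260 Hars was at 50.3 and 50.3 CPM with DMSO and 52.2 and 56.7 with BML-260, and Hars2 at 37.1 and 36.6 with DMSO and 32.0 and 31.5 with BML-260. The log2 fold changes were 0.11 and -0.22, of opposite sign. Hars did not pass, and Hars2 lost its call when any 1 of the 4 libraries of 3 days was left out. For the counting, use of strand was not given in the sources used here, so reads from the overlap cannot be assigned.

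The 8 mitochondrial translation factors all passed as higher with BML-260 than with ISO at 1 day, a comparison added after the data were seen. There 21.6% of all genes tested were higher and 22.8% lower. The median log2 difference was 0.38, beside 0.00 over all genes. Against DMSO at 1 day, 2 of the 8 rose with BML-260 (9.32% of all genes higher) and 6 fell with ISO (20.3% of all genes lower). Against DMSO at 3 days 1 fell with ISO (9.24% of all genes lower). The elongation factor gene Gfm1 was at 127 and 117 CPM with DMSO and 135 and 137 with BML-260 at 1 day, at 91.7 and 87.1 with DMSO at 3 days, and at 95.5 and 89.0 with ISO, which overlaps the DMSO libraries of 3 days.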
